A study of Mus musculus with 18 samples.

Results

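The 8 genes described here encode the SOCS (suppressor of cytokine signalling) family of the mouse, Cish and Socs1 to Socs7. They were taken by symbol from 2 tables of read counts per gene, 1 for colon and 1 for spinal dorsal horn, and are 8 of the 15410 gene symbols found in either table. The family was chosen because Cish was lower in the colon and higher in the dorsal horn of the treated groups, so the differences of Cish between groups are given as a description, without a test. The study measured RNA in a mouse model of acute bone cancer pain in which mice received nivolumab, an antibody raised to block the human form of the immune checkpoint receptor PD-1. Each tissue had a sham group given control IgG, a cancer group given control IgG and a cancer group given nivolumab, with 3 libraries per group and 18 libraries in all. All groups were wild type. Strain, age, sex, tumour cells, dose and time after surgery were not given in the sources used here. Nothing in the labels says whether the 3 libraries of a group came from separate animals, so each p-value measures only the spread between these libraries, which may be technical.

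SOCS proteins are brakes on cytokine receptors. A cytokine brings its receptor chains together, the JAK kinases bound to them phosphorylate STAT transcription factors, and the STATs switch on genes that include several SOCS genes themselves. Each SOCS protein has an SH2 domain, which binds phosphorylated tyrosine, and a SOCS box, which recruits a ubiquitin ligase that marks the bound receptor or kinase for destruction. CIS, the product of Cish, is a classic STAT5 target that dampens interleukin-2, erythropoietin and growth hormone signals and restrains activated T cells and NK cells. SOCS2 limits growth hormone signalling, SOCS3 limits receptors that use the gp130 chain, such as the interleukin-6 receptor, and SOCS1 limits interferon signalling. SOCS4 to SOCS7 are less studied and have been tied mainly to growth factor and insulin receptors.

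Sequence is shown for the 3 genes whose searched promoter window held a STAT or interferon motif, since these are the inducible members discussed below. It runs up to a RefSeq start of transcription, and for Cish to just past it. For Cish and Socs3 the printed stretch lies inside the gene span given below, which begins upstream of the RefSeq start used. It may therefore hold transcribed sequence. The sequences are RefSeq's, on GRCm38.p6, written 5′ to 3′ on the gene's strand, and the capitals mark the motif. Promoters of 4 of the 8 genes (Cish, Socs1, Socs3 and Socs4) were matched, each searched on both strands from 250 bases before to 50 bases after the RefSeq start. The motifs were TTCNNNGAA, the spaced half-sites that STATs bind, the same half-sites with 4 bases between them, which STAT6 also binds, and the interferon-response element, here GAAA followed after any 2 bases by GAAA. Cish, at chr9:107296409-107296678 on the plus strand, held 2 TTCNNNGAA matches, which began at the start and 11 bases after it:
Cish: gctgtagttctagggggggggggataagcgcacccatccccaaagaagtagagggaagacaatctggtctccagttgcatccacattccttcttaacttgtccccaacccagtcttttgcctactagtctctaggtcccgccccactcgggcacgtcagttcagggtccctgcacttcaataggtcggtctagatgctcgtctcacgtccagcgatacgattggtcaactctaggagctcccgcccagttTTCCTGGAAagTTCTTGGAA
Socs3, at chr11:117969367-117969616 on the minus strand, held 1 TTCNNNGAA match, which began 154 bases before the start:
Socs3: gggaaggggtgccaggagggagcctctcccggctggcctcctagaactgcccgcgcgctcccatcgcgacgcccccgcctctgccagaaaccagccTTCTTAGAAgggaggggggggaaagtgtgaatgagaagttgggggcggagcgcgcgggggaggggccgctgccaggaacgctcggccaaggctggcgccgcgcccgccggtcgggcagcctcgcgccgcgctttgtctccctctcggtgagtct
Socs1, at chr16:10785537-10785786 on the minus strand, held 2 overlapping matches to the interferon-response element, which began 83 and 77 bases before the start:
Socs1: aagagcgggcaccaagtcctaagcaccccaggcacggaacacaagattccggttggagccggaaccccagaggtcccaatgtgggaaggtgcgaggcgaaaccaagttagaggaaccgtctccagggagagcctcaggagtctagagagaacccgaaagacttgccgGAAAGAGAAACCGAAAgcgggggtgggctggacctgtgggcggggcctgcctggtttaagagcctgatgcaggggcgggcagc
Among 32851 mouse promoter windows of the same length, 8.3% held TTCNNNGAA, 6.95% the wider STAT spacing and 3.44% the interferon-response element. The Socs4 window held none of the 3 motifs. A match is a stretch of letters, not a measured binding site.

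Library totals were 20896854 to 30803957 counts in colon and 21855085 to 29071908 in dorsal horn, and all 8 genes passed the filter on low counts in both tissues. Levels are given as CPM, counts scaled to a common library size with TMM (edgeR's trimmed-mean factors), and a total of 3 counts corresponded to 0.0950 to 0.149 CPM in colon and 0.103 to 0.132 CPM in dorsal horn. Colon libraries held the epithelial gene Epcam at 1258 to 2057 CPM, and dorsal horn libraries held Slc32a1, the vesicular transporter of inhibitory neurons, at 121.5 to 202.7 CPM. Markers of sensory neurons of the dorsal root ganglion, which lies outside the cord, set some dorsal horn libraries apart. The 12 ganglion markers together reached 1333 to 2165 CPM in the nivolumab libraries, 151.5 to 699.8 CPM in sham and 129.6 to 761.9 CPM in cancer, where replicate 3 held the highest sum of each group. In bulk tissue fewer cells of a type and less RNA per cell cannot be told apart.

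In sham animals every member differed between the tissues (edgeR's quasi-likelihood test over 14164 genes, adjusted p at most 0.000229), in a comparison where 75.2% of all genes passed. Cish and Socs1, Socs2, Socs3, Socs4 and Socs6 were higher in colon, and Socs5 and Socs7 were higher in dorsal horn. Socs1 differed most, by 30.4-fold (log2 4.92, SE 0.40, adjusted p = 4.79e-08), from 7.82 ± 0.513 CPM in colon to 0.261 ± 0.158 CPM in dorsal horn (SD, n = 3). Cish stood at 34.6 ± 3.21 CPM in colon and 4.28 ± 0.691 CPM in dorsal horn, 8.35-fold apart (log2 3.06, SE 0.18, adjusted p = 2.02e-09). The mean of Socs3 was 10.5-fold higher in colon by the fit, that of Socs2 5.66-fold, that of Socs4 3.68-fold and that of Socs6 2.02-fold. Socs5 had a log2 difference between colon and dorsal horn of -2.05 (SE 0.20, adjusted p = 3.56e-07) and Socs7 one of -0.91 (SE 0.11, adjusted p = 4.26e-06). The inducible genes Cish, Socs1, Socs2 and Socs3 were thus all on the colon side.

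Divided by the length of each gene's exons (CPM per kb), the order of levels also differed between the tissues. This length joined the exons of all annotated transcripts of a gene. It was 2891 bases for Socs3 and 2908 for Socs1, and 6416 to 11349 for the others, so the order within a tissue depends on it. Before the division, sham colon means were 57.0 CPM for Socs4, 50.7 for Socs6, 45.3 for Socs2 and 43.4 for Socs3. In sham colon Socs3 was highest at 15.0 ± 2.83 CPM per kb (SD, n = 3), followed by Socs4 at 8.29 ± 1.27, and both stood clear of the next gene. Cish at 5.38, Socs2 at 4.76, Socs6 at 4.47, Socs7 at 4.42, Socs5 at 3.32 and Socs1 at 2.69 CPM per kb came next, and each overlapped its neighbour in that order. Sham dorsal horn was led by Socs5 at 14.2 ± 0.812 and Socs7 at 8.58 ± 0.0986 CPM per kb, again without overlap. Socs4 at 2.33, Socs6 at 2.30, Socs3 at 1.48, Socs2 at 0.874 and Cish at 0.667 CPM per kb formed a run of overlapping neighbours, and Socs1 was lowest at 0.0899, below every Cish value.

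Cish, the gene of the STAT5-induced receptor inhibitor CIS, ran in opposite order in the tissues. It lies on GRCm38 chr9:107296026-107302784, plus strand. Colon levels were 36.0, 36.8 and 30.9 CPM in sham replicates 1 to 3, 26.1, 30.2 and 24.7 CPM in cancer, and 14.8, 19.4 and 15.7 CPM in nivolumab. Each cancer library lay below every sham library, and each nivolumab library below every cancer library. The fitted colon log2 fold changes were -0.36 (SE 0.17) for cancer against sham, -0.70 (SE 0.17) for nivolumab against cancer and -1.05 (SE 0.17) for nivolumab against sham, the last a level 0.482 times that of sham. Over all colon genes 12.3%, 7.16% and 6.11% were likewise lower without overlap in these 3 comparisons. These values chose the family and carry no test. The exons of Cish share bases with 2 gene models on the opposite strand, Gm17040 and Gm17041, which were not analysed here. Whether the counting used strand was not given in the sources used here, so reads of Cish and of these models cannot be told apart.

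Dorsal horn levels of Cish were lower and ran the other way. They were 3.86, 3.90 and 5.08 CPM in sham, 5.73, 4.83 and 5.70 CPM in cancer, and 7.62, 6.55 and 9.14 CPM in nivolumab, from 94 to 247 counts per library. Sham and cancer overlapped through sham 3 and cancer 2, while all nivolumab libraries exceeded all others. The log2 fold changes were 0.34 (SE 0.18) for cancer against sham, 0.52 (SE 0.18) for nivolumab against cancer and 0.86 (SE 0.18) for nivolumab against sham, the last a 1.81-fold higher level. In dorsal horn 20.6% of all genes were higher without overlap in nivolumab than in cancer and 17.1% than in sham. Of the 12713 genes tested in both tissues, 1.42% separated nivolumab from cancer without overlap as Cish did, lower in colon and higher in dorsal horn, and 1.16% separated nivolumab from sham in that way. In opposite directions of either kind 2.77% and 3.26% did. Nothing is read from these shares, since the choice of Cish used them. The contrasts within a tissue share groups and are not independent of each other.

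**Figure D1:**
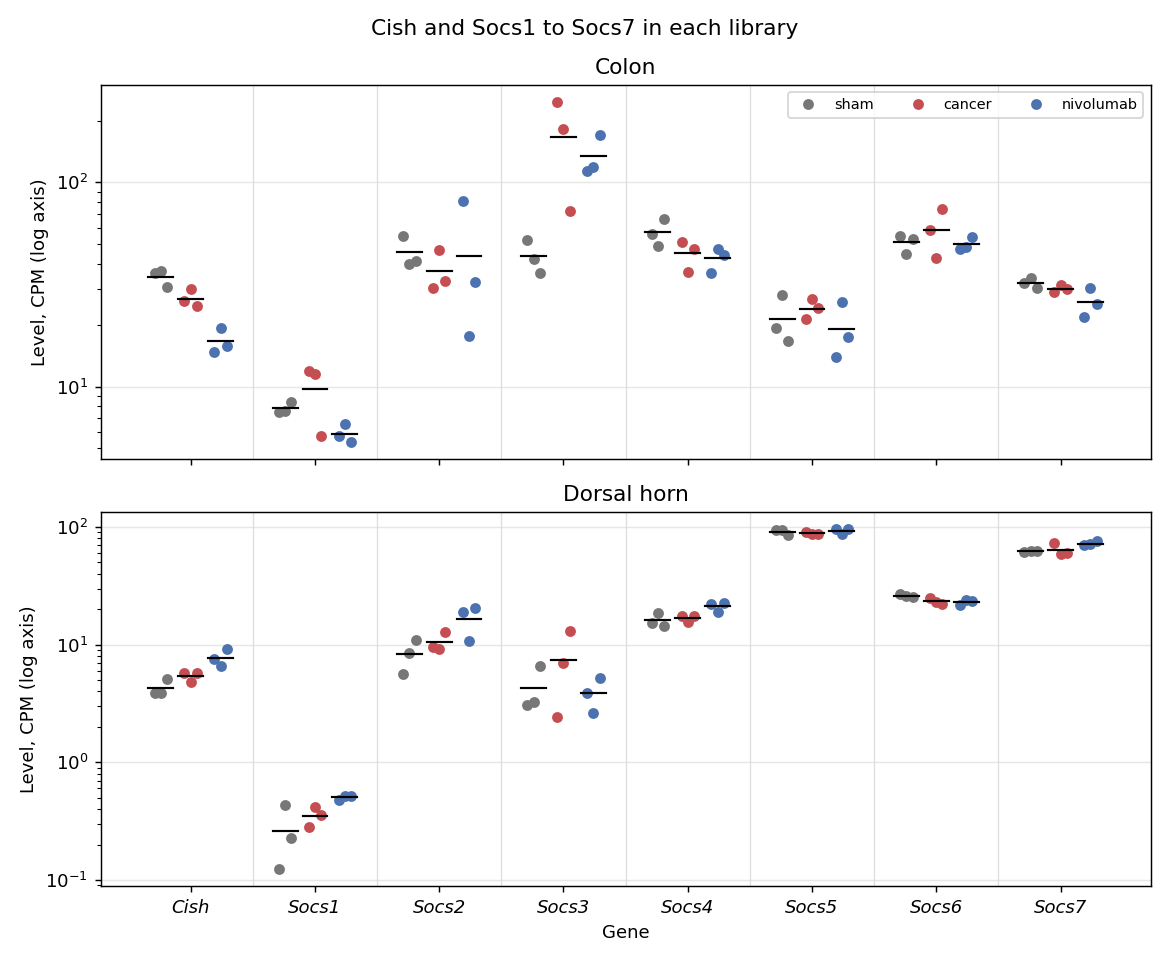
Level of each SOCS family gene in every library (CPM, log axis), colon in the upper panel and dorsal horn in the lower one, with points for the 3 libraries of each group and black lines for group means. Cish steps down from sham to nivolumab in colon (34.6, 27.0 and 16.6 CPM) and up in dorsal horn (4.28, 5.42 and 7.77 CPM), and colon Socs3 stands at 36.1 to 52.3 CPM in sham against 72.5 to 247 CPM in the other 6 libraries.

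Beside the dorsal horn values stand the ganglion markers. Their sum was higher in every nivolumab library than in any other, as Cish was. Sham 3 and cancer 3 also carried high ganglion sums, while replicates 1 and 2 of both groups held few ganglion transcripts. Within sham, sham 3 had the highest Cish, at 5.08 CPM against 3.86 and 3.90 CPM. Within cancer, cancer 3 at 5.70 CPM lay between cancer 2 and cancer 1, at 4.83 and 5.73 CPM. Scn10a, a sodium channel of nociceptors, was at 0 to 0.114 CPM in replicates 1 and 2 of sham and cancer. Without sham 3 and cancer 3 the Cish log2 differences were 0.47, 0.56 and 1.02 in the same 3 comparisons, and with the ganglion marker level as a covariate they were 0.34, 0.26 and 0.60. The part of ganglion RNA in the Cish difference was not tested. T and NK cell markers, the cells in which CIS is best known, summed to 1.63 to 6.43 CPM in dorsal horn, with 1 to 6 of the 10 markers measured (of 11 listed) at 0 in a library. In colon the same 10 markers summed to 70.9 to 134.3 CPM in sham, 60.4 to 139.9 CPM in cancer and 36.5 to 156.2 CPM in nivolumab, ranges that overlap while those of Cish did not. Smooth muscle markers in colon summed to 1456 to 20923 CPM in sham, 6894 to 23616 CPM in cancer and 3113 to 4800 CPM in nivolumab. Goblet cell markers summed to 21763 to 28186 CPM in sham, 5760 to 26729 CPM in cancer and 3471 to 8845 CPM in nivolumab, so that nivolumab lay below sham without overlap as Cish did. Markers of B and plasma cells summed to 1278 to 1591 CPM in sham, above the 388.9 to 771.7 CPM of cancer and the 591.6 to 728.5 CPM of nivolumab. The part of these cells in the Cish values was not tested.

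The genes most like Cish were found by the root-mean-square difference of log2 CPM, taken as deviations from each tissue's mean over the 18 libraries, among 11467 genes. The nearest were Zbtb10 and Utrn at 0.242 each, Casz1 at 0.258, Glce at 0.263 and Ccdc141 at 0.264, where the median gene stood at 0.509. Zbtb10 had means of 30.5, 29.2 and 22.1 CPM in sham, cancer and nivolumab colon and of 9.05, 10.1 and 13.6 CPM in dorsal horn. Glce, an enzyme of heparan sulphate synthesis, had 52.0, 37.2 and 33.5 CPM in colon and 21.0, 23.5 and 30.5 CPM in dorsal horn. Only genes whose log2 CPM averaged 0 or above in each tissue were ranked. Socs1 was therefore left out, since its dorsal horn libraries lay at -2.32 to -0.748. Among the other members Socs7 came nearest to Cish, at 0.305 and rank 21, then Socs4 at 0.333 and rank 69. Socs2, which is often induced by STAT5 as Cish is, stood at 0.533 and rank 6785, farther than the median gene. Ranked from Socs2 instead, Cish at the same 0.533 had rank 1080, nearer than the median gene at 0.627. A gene without any change would stand at 0.424 from Cish, so the measure also depends on how much each gene spreads. The points of this measure share libraries and tissues, and it carries no test.

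Across Socs1 to Socs7 no gene passed an adjusted p of 0.05 in any of the 3 group comparisons of either tissue (edgeR's quasi-likelihood test, all genes of the tissue). At an unadjusted p under 0.05 the colon comparisons gave 1, 0 and 2 of the 7 genes (cancer against sham, then nivolumab against cancer, then nivolumab against sham), and DESeq2 with adjustment passed 1, 0 and 1. In colon the share of all genes that passed by edgeR was 0% in each comparison, and 10.9%, 9.84% and 6.45% of 13445 genes had an unadjusted p under 0.05. DESeq2 passed 379, 183 and 147 of the 14987 colon genes. The dorsal horn comparisons gave 0, 2 and 3 of the 7 genes at an unadjusted p under 0.05, and DESeq2 passed 0, 0 and 2. There 0.323%, 17.2% and 8.51% of 13609 genes passed the adjusted threshold by edgeR, and 13.1%, 34.2% and 26.1% had an unadjusted p under 0.05. Of the 15193 dorsal horn genes DESeq2 passed 366 in cancer against sham and 1928 in nivolumab against sham. Its total for nivolumab against cancer is not given here. The median log2 fold change of these 7 genes was 0.18, -0.23 and -0.15 in colon, beside 0.00, 0.03 and 0.03 over all genes tested, and 0.07, 0.17 and 0.22 in dorsal horn, beside 0.01, 0.00 and -0.00.

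**Figure D2:**
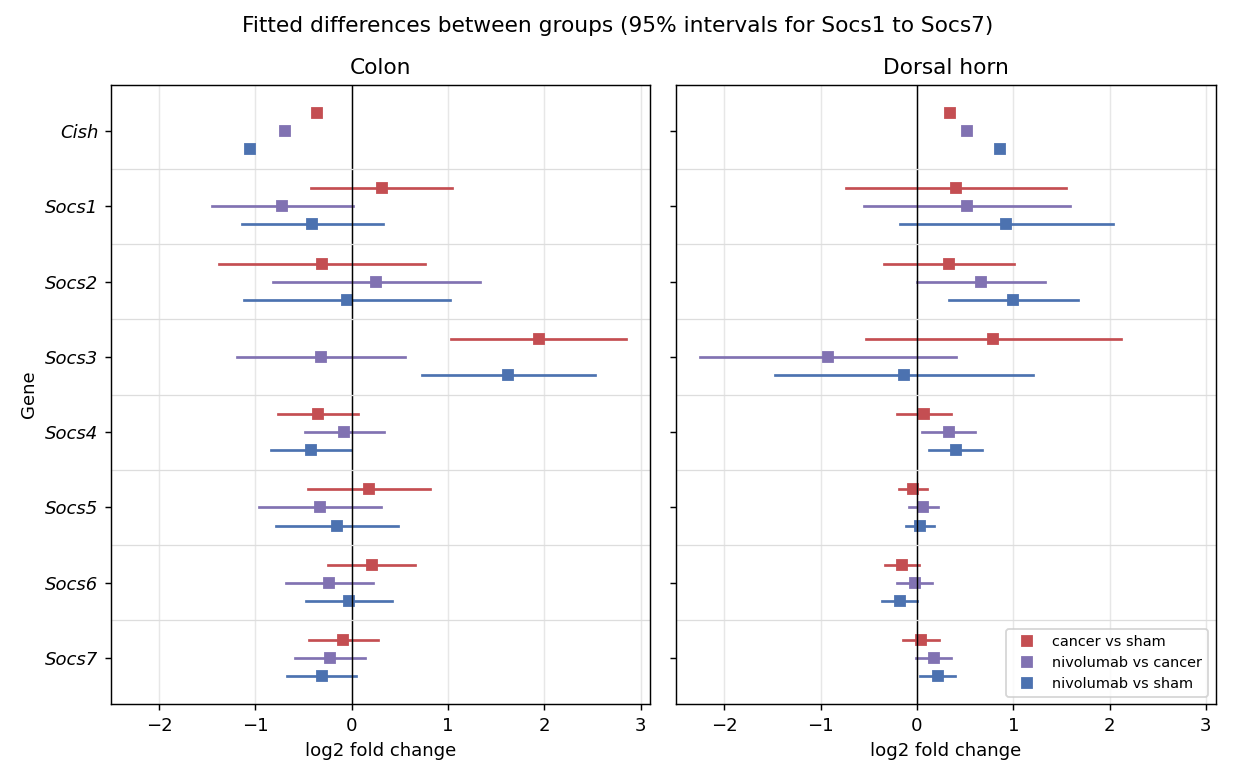
Fitted log2 fold change of each family gene in the 3 group comparisons (squares), with 95% intervals of the edgeR fit for Socs1 to Socs7 and none for Cish, which was chosen on these values. Colon Socs3 lies highest, at 1.94 for cancer and 1.62 for nivolumab against sham, and Socs5 in dorsal horn has the narrowest span, between -0.04 and 0.07.

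Socs2 encodes the growth hormone brake of the family and lies on chr10:95385362-95417180, minus strand. In dorsal horn it stood at 5.63, 8.48 and 10.9 CPM in sham, 9.57, 9.10 and 12.9 CPM in cancer, and 19.0, 10.7 and 20.4 CPM in nivolumab. Nivolumab 1 and 3 exceeded every other library, while nivolumab 2 lay among the sham and cancer values. The log2 fold change of nivolumab against sham was 1.00 (SE 0.30, 95% interval 0.33 to 1.67), with an adjusted p of 0.0705. It passed at 1.24 (adjusted p = 0.0353) without nivolumab 2, at 1.26 (adjusted p = 0.0408) without sham 3 and cancer 3, and at 1.00 in DESeq2 (adjusted p = 0.00801). Against cancer the nivolumab value was 0.67 (SE 0.29, adjusted p = 0.145), and cancer against sham gave 0.33 (SE 0.30, adjusted p = 0.683). The ganglion sums named above were likewise highest in the nivolumab libraries. With the ganglion marker level as a covariate, Socs2 had 0.44 against sham (adjusted p = 0.388) and 0.11 against cancer (adjusted p = 0.829).

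Colon Socs2 spread widely within groups. Its levels were 54.7, 40.0 and 41.3 CPM in sham, 30.3, 46.7 and 32.9 CPM in cancer, and 81.1, 17.6 and 32.6 CPM in nivolumab. The nivolumab group alone held both the highest and the lowest of the 9 libraries, 4.60-fold apart, and all groups overlapped. The colon log2 fold changes were -0.31, 0.26 and -0.05, with adjusted p of 0.799, 0.827 and 0.996. The genes nearest to Socs2 by the same likeness measure were Rtn4rl1 at 0.322, Wipf3 at 0.339, Ptprr at 0.347, and Slc38a9 and Sestd1 at 0.351, against a median of 0.627.

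Socs3, the brake on gp130 receptors, spread more between libraries than the other members. It lies on chr11:117966079-117970047, minus strand, and its STAT motif is shown above. In colon it stood at 52.3, 41.9 and 36.1 CPM in sham, 247, 181 and 72.5 CPM in cancer, and 113, 119 and 169 CPM in nivolumab. All 6 libraries from cancer-bearing groups exceeded all 3 sham libraries, and cancer and nivolumab overlapped. This was 1 of the 7 genes without Cish separated upward from sham in each of the 2 comparisons, where 6.96% of all genes were separated upward in cancer and 8.81% in nivolumab.

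For cancer against sham the Socs3 log2 fold change was 1.94 (SE 0.40, 95% interval 1.03 to 2.85), which with adjustment over all colon genes gave 0.181. Nivolumab against sham gave 1.62 (SE 0.40, 95% interval 0.72 to 2.52, adjusted p = 0.469), and nivolumab against cancer -0.32 (SE 0.39, adjusted p = 0.736). DESeq2 passed both comparisons with sham, at 1.96 (adjusted p = 0.00048) and 1.62 (adjusted p = 0.0148). Without cancer 3, the cancer library nearest to sham, the cancer difference was 2.30 (adjusted p = 0.0368).

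Neutrophil markers were also uneven in colon. The 7 markers summed to 4.71 to 7.15 CPM in sham, 3.63 to 86.5 CPM in cancer and 30.0 to 186.1 CPM in nivolumab. The alarmin gene S100a8 stood at 0.412, 0 and 0 CPM in sham, at 3.50, 15.4 and 1.54 CPM in cancer, and at 32.9, 4.47 and 40.4 CPM in nivolumab. Cancer 3 was lowest of the cancer libraries in both Socs3 and the neutrophil sum. Its sum lay below every sham library and its Socs3 above them. By the mean log2 CPM of the 7 markers, the lowest cancer library stood at -1.33, within the sham range of -2.55 to -1.08. The place of the lowest cancer library against sham thus depended on the measure. Cancer 1, highest in Socs3, had a neutrophil sum of 25.0 CPM, below every nivolumab library. In sham 1, 2 and 3, respectively, 1, 4 and 5 of the 7 markers were at 0. None of the 7 markers passed the test in cancer against sham, with a median log2 fold change of 5.23, and their part in the Socs3 difference was not tested.

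Dorsal horn Socs3 stood at 3.08, 3.23 and 6.56 CPM in sham, 2.44, 7.04 and 12.9 CPM in cancer, and 3.89, 2.61 and 5.26 CPM in nivolumab. The 3 groups overlapped, and cancer 3 and cancer 2 were the highest libraries. The log2 fold changes were 0.79 (SE 0.58, adjusted p = 0.607) for cancer against sham, -0.93 (SE 0.58, adjusted p = 0.291) for nivolumab against cancer and -0.13 (SE 0.58, adjusted p = 0.912) for nivolumab against sham. Replicate by replicate the neutrophil markers had mean log2 CPM of 2.34, 0.14 and 2.90 in sham, 0.85, 2.91 and 4.74 in cancer, and 0.71, 1.03 and 1.88 in nivolumab. The library with most neutrophil transcripts, cancer 3, was also the one with most Socs3. With the ganglion marker level as a covariate the nivolumab difference from cancer was -1.97 (adjusted p = 0.0192), and the ganglion and neutrophil parts in it were not tested. The genes most like Socs3 over the 18 libraries were Plaur at 0.396, Napsa at 0.436, Ier3 at 0.461, Cebpb at 0.463 and Map3k6 at 0.464, against a median of 0.888. Plaur, the urokinase receptor, had means of 11.4, 34.8 and 34.6 CPM in sham, cancer and nivolumab colon.

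**Figure D3:**
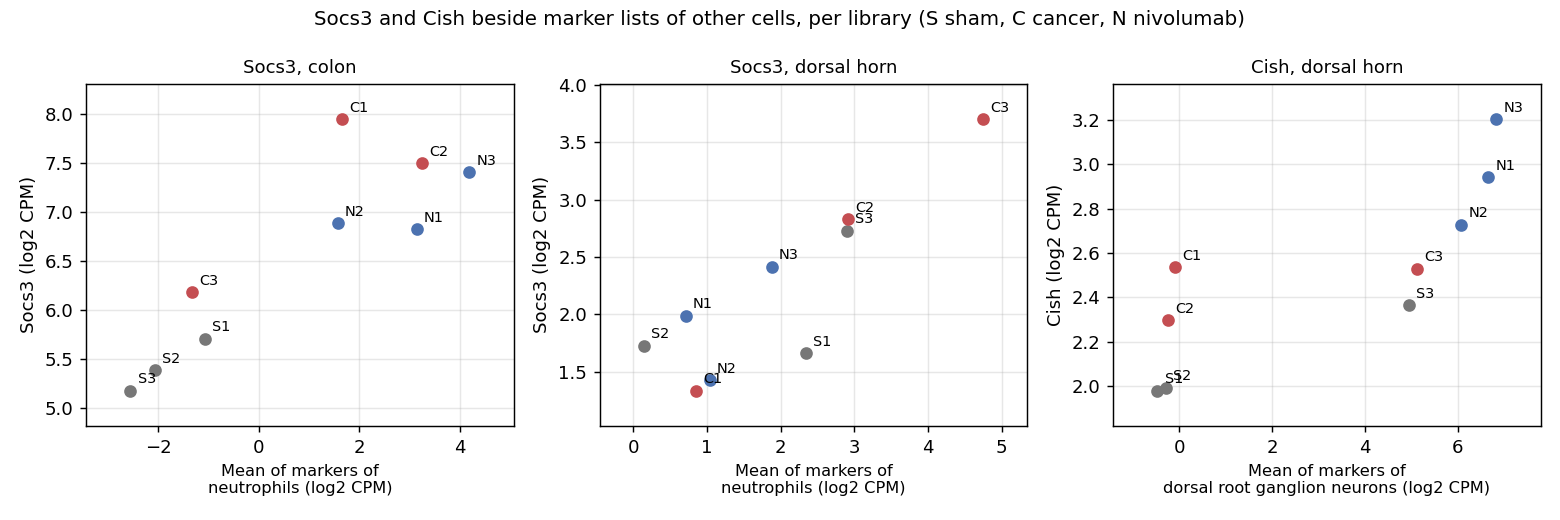
Socs3 in colon and in dorsal horn (log2 CPM, vertical axes) against the mean log2 CPM of the neutrophil markers, and dorsal horn Cish against that of the ganglion markers, with 1 labelled point per library (S sham, C cancer, N nivolumab, with the replicate number). Colon sham libraries sit low on both axes, and the 3 nivolumab dorsal horn libraries sit high in both Cish (6.55 to 9.14 CPM before the log) and ganglion markers. Sham 3 and cancer 3 are high in ganglion markers with Cish at 5.08 and 5.70 CPM. Cish stands at 3.86 and 3.90 CPM in sham 1 and 2, and at 5.73 and 4.83 CPM in cancer 1 and 2.

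Socs1, which blocks JAK kinases and limits interferon signalling, lies on chr16:10782240-10785536, minus strand, just downstream of the interferon motif shown above. In colon it stood at 7.47, 7.58 and 8.41 CPM in sham, 11.9, 11.5 and 5.72 CPM in cancer, and 5.74, 6.58 and 5.33 CPM in nivolumab. Cancer 1 and 2 were the highest and cancer 3 lay among the nivolumab libraries, while all nivolumab libraries lay below all sham libraries. The log2 fold changes were 0.31 (SE 0.32, adjusted p = 0.698), -0.72 (SE 0.32, adjusted p = 0.508) and -0.41 (SE 0.32, adjusted p = 0.915) for the same 3 comparisons in order. In the last, 6.11% of all genes lay lower without overlap, as did Socs1 and Socs4, 2 of the 7 genes without Cish.

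Dorsal horn Socs1 was near the limit of counting, with 3, 11 and 6 counts in sham, 8, 11 and 8 in cancer, and 11, 15 and 14 in nivolumab. In CPM these were 0.123, 0.434 and 0.227, then 0.279, 0.419 and 0.353, then 0.476, 0.514 and 0.518. Every nivolumab library exceeded the others in CPM. In counts nivolumab 1, sham 2 and cancer 2 were level at 11, so the separation rests on the scaling of the libraries. The exact Poisson 95% intervals of the extremes, 0.619 to 8.77 around 3 counts and 8.40 to 24.7 around 15 counts, overlap, and they cover counting error only. The log2 fold change of nivolumab against sham was 0.93 (SE 0.49, 95% interval -0.18 to 2.03, adjusted p = 0.268), that against cancer 0.52 (SE 0.48, adjusted p = 0.469) and that of cancer against sham 0.41 (SE 0.51, adjusted p = 0.780).

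Socs4 and Socs5 encode the pair tied to the EGF receptor. Socs4, on chr14:47276931-47296102, plus strand, stood in dorsal horn at 15.2, 18.6 and 14.3 CPM in sham, 17.7, 15.5 and 17.5 CPM in cancer, and 22.4, 18.9 and 22.4 CPM in nivolumab. All nivolumab libraries exceeded all others. Against sham the log2 fold change was 0.40 (SE 0.12, 95% interval 0.13 to 0.68, adjusted p = 0.0734), and against cancer 0.33 (SE 0.12, adjusted p = 0.0930). It passed against sham at 0.52 without sham 2 (adjusted p = 0.0485) and at 0.41 in DESeq2 (adjusted p = 0.0359). Of the 7 genes without Cish, 2 lay above cancer without overlap (Socs1 and Socs4) and 3 above sham (these and Socs7), where 20.6% and 17.1% of all genes were.

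In colon Socs4 stood at 55.7, 49.0 and 66.3 CPM in sham, 50.9, 36.5 and 47.0 CPM in cancer, and 36.1, 47.3 and 44.0 CPM in nivolumab. The nivolumab libraries all lay below the sham libraries and overlapped the cancer libraries. The log2 fold changes were -0.35 (SE 0.18, adjusted p = 0.526), -0.08 (adjusted p = 0.869) and -0.42 (SE 0.18, adjusted p = 0.764) in the order used above. Socs5, on chr17:87107679-87137839, plus strand, was the steadiest member in dorsal horn, at 85.2 to 96.7 CPM over all 9 libraries, 1.13-fold from lowest to highest. Its dorsal horn log2 fold change of nivolumab against cancer was 0.07 with a 95% interval of -0.08 to 0.21, and that against sham 0.03 with an interval of -0.12 to 0.18. In colon Socs5 spread from 14.0 to 28.1 CPM with all groups overlapping, and its 3 adjusted p values were 0.650 to 0.994.

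Socs6 and Socs7 encode members tied to the receptor KIT and to insulin receptor substrates. Socs7, on chr11:97362551-97398542, plus strand, stood in dorsal horn at 61.6, 63.0 and 62.4 CPM in sham, 72.7, 59.3 and 60.5 CPM in cancer, and 70.1, 71.3 and 75.8 CPM in nivolumab. Nivolumab exceeded sham without overlap, and cancer 1 reached the nivolumab range. Against sham the log2 fold change was 0.22 (SE 0.08, 95% interval 0.03 to 0.40, adjusted p = 0.131), and against cancer 0.17 (SE 0.08, adjusted p = 0.165). Without cancer 1 both passed, at 0.23 (adjusted p = 0.0435) and 0.27 (adjusted p = 0.0240). Colon Socs7 means were 32.1 ± 1.87, 30.2 ± 1.22 and 25.8 ± 4.27 CPM (SD, n = 3), overlapping between groups, with adjusted p of 0.613 to 0.831.

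Dorsal horn Socs6 stood at 27.0, 25.9 and 25.4 CPM in sham, 25.1, 22.9 and 22.2 CPM in cancer, and 21.6, 23.9 and 23.6 CPM in nivolumab. All sham libraries exceeded all others, which made it 1 of the 7 genes without Cish below sham without overlap in each comparison with sham, where 8.34% (cancer) and 18.1% (nivolumab) of all genes were. The log2 fold changes from sham were -0.15 (SE 0.08, adjusted p = 0.458) for cancer and -0.18 (SE 0.08, adjusted p = 0.193) for nivolumab. Colon Socs6 ranged from 42.8 to 74.2 CPM, both ends in the cancer group, with adjusted p of 0.651 to 0.996.

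The difference between the tissues in each contrast was fitted over all 18 libraries. None of Socs1 to Socs7 passed in any of the 3 contrasts (edgeR's quasi-likelihood test over 14164 genes), where 0.155%, 0.127% and 0.184% of all genes did. At an unadjusted p under 0.05 there were 0, 3 and 4 of the 7 genes, beside 10.9%, 16.4% and 12.7% of all genes. DESeq2 with adjustment passed 0, 0 and 2 of the 7 genes, beside 331, 748 and 498 of the 14770 genes found in both tissues. The 2 were Socs4 at -0.82 (adjusted p = 0.0198) and Socs7 at -0.52 (adjusted p = 0.0305), for nivolumab against sham. For nivolumab against sham the colon minus dorsal horn difference in log2 fold change was -0.86 for Socs4 (SE 0.22, adjusted p = 0.143), -0.56 for Socs7 (SE 0.16, adjusted p = 0.174), -1.37 for Socs1 (SE 0.51, adjusted p = 0.279) and 1.72 for Socs3 (SE 0.74, adjusted p = 0.341). For Cish, given without a test, it was -0.66, -1.29 and -1.94 (SE 0.24 each) in the 3 contrasts.

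The genes around the family were described with 12 lists of kinases, factors, receptors, ligands and targets. In colon none of the 137 tested genes of the 12 lists passed in any comparison by edgeR, as none of all genes did. At an unadjusted p under 0.05 there were 38, 14 and 24, in the order used above, beside 10.9%, 9.84% and 6.45% of all genes. DESeq2 passed 15, 3 and 11 of the list genes, beside 379, 183 and 147 of the 14987 colon genes. The STAT3 and acute-phase targets had a median log2 fold change of 1.30 for cancer against sham, positive in 14 of 14 genes, beside 0.00 over all genes. Lrg1, an acute-phase glycoprotein gene, had the smallest p of that list, with 3.61 ± 1.90 CPM in sham and 59.9 ± 44.2 CPM in cancer (SD, n = 3, adjusted p = 0.172). In DESeq2 it passed at 4.09 (adjusted p = 8.07e-07), as did Zbtb16 at 3.23 (adjusted p = 4.76e-08), Il13ra1 at 0.81 (adjusted p = 0.00270) and Stat3 at 0.91 (adjusted p = 0.0356). Glucocorticoid-induced genes had a median of 1.02, positive in 13 of 13. The colon neutrophil values given beside Socs3 stand beside these lists too, and their part was not tested. In dorsal horn none of 124 passed in cancer against sham by edgeR, where 0.323% of all genes did. There 13 had an unadjusted p under 0.05, beside 13.1% of all genes, and 3 passed in DESeq2, beside 366 of the 15193 dorsal horn genes.

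**Figure D4:**
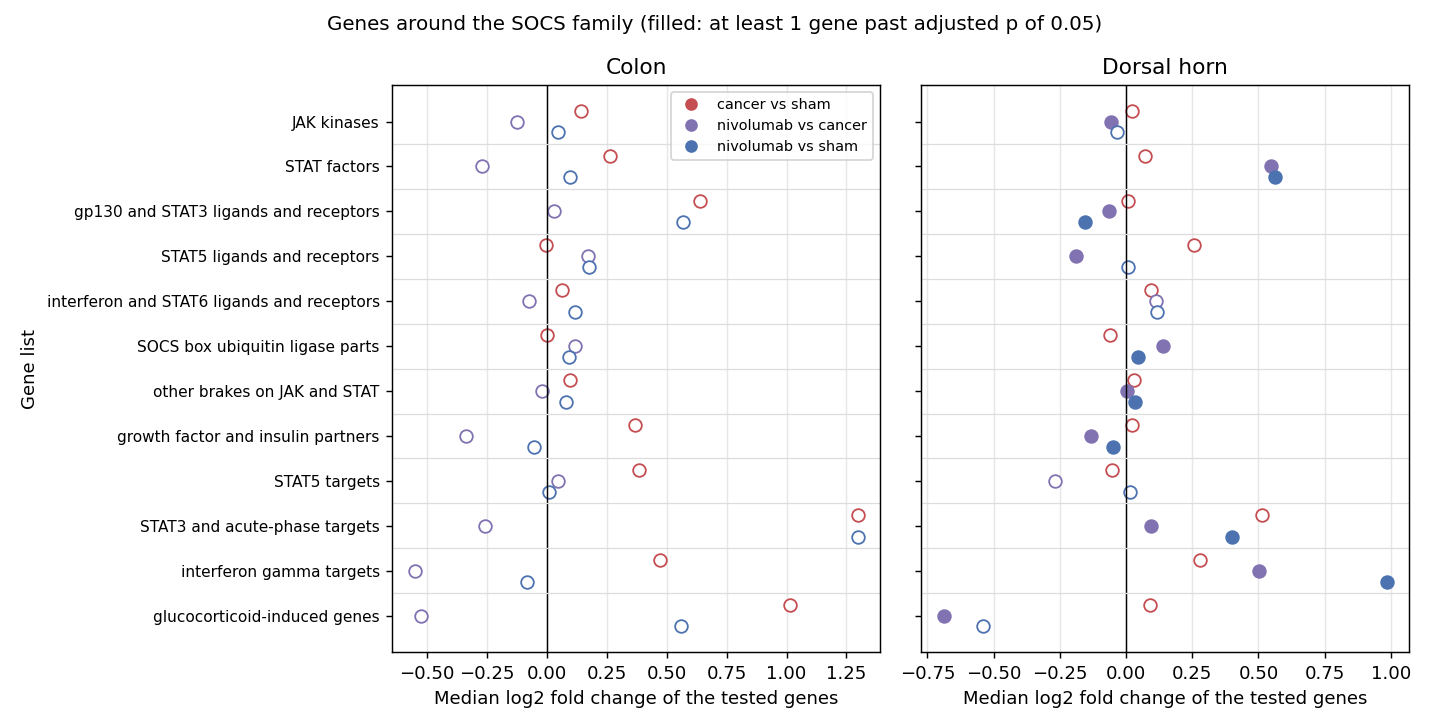
Median log2 fold change of the tested genes of each list in the 3 group comparisons, colon on the left and dorsal horn on the right, with filled points where at least 1 gene passed an adjusted p of 0.05. No colon point is filled, and in dorsal horn the STAT factors have medians of 0.55 against cancer and 0.56 against sham in the nivolumab comparisons.

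List genes that passed in dorsal horn did so in the nivolumab comparisons. Against cancer 3 of 5 STAT factors rose and none fell, with a list median of 0.55, in a comparison where 8.63% of all genes rose and 8.60% fell. Stat2, which carries interferon signals, rose by a log2 of 0.68 (SE 0.09, adjusted p = 0.00216), from 40.2 ± 2.30 to 64.2 ± 6.81 CPM, and Stat3, the main factor behind gp130, by 0.55 (SE 0.13, adjusted p = 0.0208). Stat6, the interleukin-4 factor, rose from 13.7 ± 5.83 to 36.2 ± 6.83 CPM (log2 1.40, SE 0.34, adjusted p = 0.0292). The factors through which Cish is classically induced did not pass: Stat5a had 0.25 (SE 0.18, adjusted p = 0.345) and Stat5b -0.07 (SE 0.07, adjusted p = 0.546).

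The same 3 factors passed against sham, at 0.75 for Stat2 (adjusted p = 0.00442), 0.56 for Stat3 (0.0303) and 1.48 for Stat6 (0.0387), a comparison that shares the nivolumab libraries and in which 4.67% of all genes rose and 3.84% fell. Stat3 and Stat6 did not hold in every subset of libraries. Against cancer, the adjusted p of Stat3 was 0.0563 without cancer 1, 0.0748 without cancer 2, 0.0736 without nivolumab 1 and 0.0814 without nivolumab 3, and that of Stat6 was 0.0822, 0.0789, 0.0922 and 0.0956. Against sham, Stat3 had 0.101 without sham 1, 0.0864 without sham 2 and 0.109 without nivolumab 1 or nivolumab 3. There Stat6 had 0.125 without sham 1, 0.106 without sham 2, 0.0638 without cancer 1, 0.132 without nivolumab 1, 0.0574 without nivolumab 2 and 0.124 without nivolumab 3. With the ganglion markers as a covariate Stat3 did not pass in either comparison, at 0.27 (adjusted p = 0.103) against cancer and 0.26 (adjusted p = 0.146) against sham, nor did Stat6 against sham, at 0.65 (adjusted p = 0.0511). Against cancer Stat6 passed with the covariate, at 0.63 (adjusted p = 0.0414), less than the 1.40 without it.

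**Figure D5:**
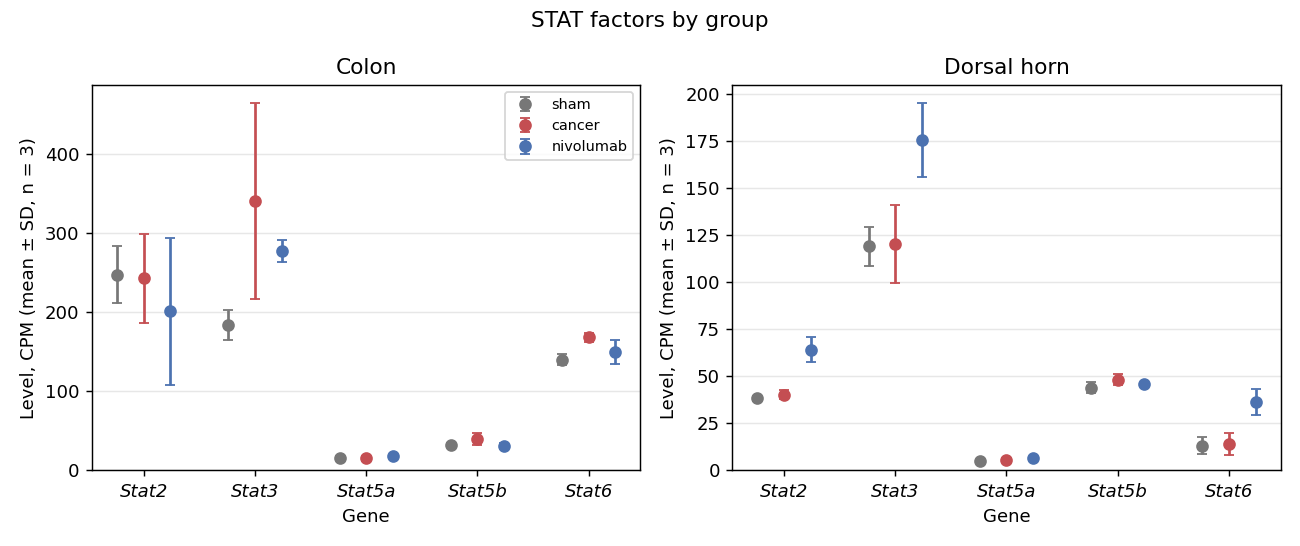
Mean level with SD (CPM, n = 3 per group) of 5 STAT factors in colon and dorsal horn. In dorsal horn Stat2, Stat3 and Stat6 stand higher in the nivolumab group than in sham and cancer (Stat2 at 38.3, 40.2 and 64.2 CPM in sham, cancer and nivolumab), and Stat5b stays between 43.9 and 48.2 CPM.

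Among gp130 receptors and ligands 2 of 14 tested genes rose against cancer in dorsal horn (4 without cancer 3), with a list median of -0.06. These were Il6st, the gp130 chain itself, from 157.2 ± 18.2 to 272.3 ± 31.8 CPM (SD, n = 3, log2 0.79, adjusted p = 0.00274), and Il10rb, a chain of the interleukin-10 and interleukin-22 receptors (1.25, adjusted p = 0.00596). Of the STAT5 ligands and receptors 3 of 16 fell. The prolactin receptor gene Prlr fell by 0.76 (adjusted p = 0.0107) and passed without each library, but had -0.57 (adjusted p = 0.0549) with the ganglion covariate. The calls of Thpo (-0.75, adjusted p = 0.0287) and Il7r (-1.77, adjusted p = 0.0300) were lost without cancer 2, without cancer 3 or without any 1 nivolumab library, at adjusted p of 0.0563 to 0.111. With the ganglion covariate Il7r did not pass (-1.49, adjusted p = 0.110), while Thpo did (-1.12, adjusted p = 0.00308). The 9 STAT5 targets had a median of -0.27, and none passed by edgeR with all 9 libraries. Of them 2 had an unadjusted p under 0.05, where 34.2% of all genes did, and 2 passed in DESeq2, beside 33 of the 124 genes of all lists. The DESeq2 share over all genes is not given for this comparison, so nothing is read from that count. The nearest, Lifr (0.72, adjusted p = 0.0532), passed by edgeR without sham 3 (0.0392), cancer 3 (0.0414) or nivolumab 2 (0.0434), and with a replicate block (0.000699), but had 0.27 (adjusted p = 0.310) with the ganglion covariate. Of the 4 JAK kinases Jak3 fell by 0.65 (adjusted p = 0.0359), a call lost without the same libraries, at adjusted p of 0.0602 to 0.114. The Jak3 call was also lost with the ganglion covariate (-0.68, adjusted p = 0.0697).

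The list of ubiquitin ligase parts drawn up for the SOCS box had a median of 0.14. Of its 9 genes 2 rose against cancer, the RING protein gene Rnf7 (0.52, adjusted p = 0.00509) and the cullin gene Cul2 (0.25, adjusted p = 0.0178). Cul2 did not pass without cancer 2 (0.0628), nivolumab 1 (0.0787) or nivolumab 3 (0.0687), nor with the ganglion covariate (0.0649). Of the 13 other brakes on JAK and STAT, 2 rose against cancer (Usp18 at 1.60, adjusted p = 0.0202, and Cbl at 0.33, adjusted p = 0.0193). Pias1 fell (-0.44, adjusted p = 0.0276), and the list median was 0.00. Against sham Usp18 rose (2.29, adjusted p = 0.0120) and Ptpn11 fell (-0.56, adjusted p = 0.0118). With the ganglion covariate Usp18 did not pass against cancer (adjusted p = 0.0622). Values of these genes without single libraries are not given. Kit, a receptor that SOCS6 binds, rose by 0.73 against cancer (adjusted p = 0.00640). It was the 1 of 14 growth factor and insulin partners that rose, in a list with a median of -0.13. The insulin receptor substrate gene Irs2 (-0.51, adjusted p = 0.0132) and the receptor gene Flt3 (-0.29, adjusted p = 0.0161) fell. Neither passed without nivolumab 1 (0.0648 and 0.0737), and Irs2 did not without cancer 2 (0.0506). The interferon gamma targets, the programme that SOCS1 limits, were positive in 14 of 14 genes, with a median of 0.50, and 3 rose. Igtp, an interferon-induced GTPase gene, rose by 1.67 (adjusted p = 0.00274), and passed without each library. Irf9 rose by 0.74 (adjusted p = 0.0169) and Gbp2 by 1.04 (adjusted p = 0.0362). The count was 2 without sham 1, and 1 without cancer 2, without nivolumab 1 or without nivolumab 3, where Irf9 had adjusted p of 0.0594, 0.0664 and 0.0660. Gbp2 did not pass without sham 1, without any 1 cancer library, without nivolumab 1 or without nivolumab 3, at adjusted p of 0.0547 to 0.138.

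STAT3 and acute-phase targets, which SOCS3 restrains, were mixed in the same comparison, with 1 that rose (Stat3) and 3 of 11 that fell. Lrg1 fell by 3.28 (adjusted p = 0.0140, and 0.0646 without nivolumab 1). Cebpd and Lcn2, the latter named after its values were seen, had adjusted p of 0.0469 and 0.0491. Leaving out any 1 nivolumab library ended both calls, as did leaving out sham 1, cancer 2 or cancer 3, and that of Lcn2 also ended without sham 2, at adjusted p of 0.0638 to 0.150. The count of those that fell was 0 to 3 when single libraries were left out, with 0 without nivolumab 1. Glucocorticoid-induced genes were negative in 13 of 13, with a median of -0.69, and 3 fell (Zbtb16, Hif3a and Plin4), a count of 0 without cancer 2 or nivolumab 1 and of 6 without cancer 1. Plin4 had -2.63 (adjusted p = 0.0504) with a replicate block. With the ganglion covariate Zbtb16 did not pass (-0.61, adjusted p = 0.133), while Hif3a (adjusted p = 0.0180) and Plin4 (adjusted p = 0.0291) did. Beside these lists, Schwann cell markers rose in 4 of 8 genes and the ganglion markers in 1 of 12, with medians of 1.29 and 2.94, and neutrophil markers had a median of -2.27. Markers of dorsal horn neurons fell in 7 of 13 genes (median -0.50), those of oligodendrocytes rose in 3 of 7 (median 0.57), and of 5 meningeal and fibroblast markers 2 rose and 1 fell. Their part in the list values was not tested.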

How the data were processed

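RNA from 18 mouse libraries was sequenced on an Illumina NovaSeq after TRIzol extraction and SmartScribe reverse transcription, per the labels' protocols. The authors deposited whole-number read counts per gene, 1 table per tissue. The submitters' processing notes name FastQC 0.11.5, Trimmomatic, HISAT2, StringTie and GRCm38, and the counting program, strand setting and annotation were not given in the sources used here. Counts were tested with edgeR 4.0.16 in R 4.3.3 (TMM factors, filterByExpr, robust quasi-likelihood fit of the 9 libraries of a tissue, or of all 18 for the tissue contrasts), with Benjamini-Hochberg adjustment over all genes and a threshold of 0.05. Log2 CPM used a prior count of 2, and SEs are the log2 fold change divided by the root of F. DESeq2 1.42.0, other scaling, other filters, a replicate block, a ganglion covariate and leaving out libraries were alternatives, and the scripts were tested on simulated data. Exon lengths came from GENCODE, whose symbols matched 15408 of the 15410 genes. All 8 members were named, and 5 genes by likeness. List genes were drawn mainly from up to 3 past the threshold per list and comparison, or else the 1 with the smallest p. Not all genes under that rule are given. One gene of the pathway lists is not reported here and was left out of their counts and medians. The members and lists were chosen with earlier results of these data known. Genes had a count of 2 more often than 1 (medians of 189 and 33 genes per colon library), so low counts are not all single reads and intervals from counts are approximate.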

Additional observations from a re-analysis of the deposited data

Results flagged for a closer look

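Socs1 and Socs4, 2 of the 7 genes without Cish, met the rule for opposite movement in the tissues. In it all 3 libraries of the later group lay on one side of all 3 libraries of the earlier group in colon. In dorsal horn they lay on the other side. Cish met it too, but was chosen for moving in opposite directions, so its values are a description and not a result. For Cish the log2 fold change of nivolumab against cancer was -0.70 in colon and 0.52 in dorsal horn, and that of nivolumab against sham -1.05 in colon and 0.86 in dorsal horn. The difference between the tissues was not tested for Cish, because it was the reason for the choice of the family. For nivolumab against sham Socs1 had -0.41 in colon and 0.93 in dorsal horn, from 3 to 15 counts per dorsal horn library in those groups. Dorsal horn nivolumab 1 and sham 2 both had 11 counts, so their order rests on the scaling of the libraries. Socs4 had -0.42 in colon and 0.40 in dorsal horn. The tissue difference itself did not pass for Socs1 or Socs4 (edgeR, adjusted p of 0.279 and 0.143). Of the genes tested in both tissues, 3.26% moved in opposite directions without overlap for nivolumab against sham and 2.77% for nivolumab against cancer. For Cish nothing is read from these shares.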

How the results depend on the processing

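Cish kept its direction in every comparison and under every alternative run. When single libraries were left out, its log2 fold changes ranged in colon from -0.43 to -0.30 (cancer against sham), -0.85 to -0.64 (nivolumab against cancer) and -1.19 to -1.02 (nivolumab against sham), and in dorsal horn from 0.27 to 0.48, 0.38 to 0.63 and 0.73 to 1.00. Counts of all genes past the threshold moved more. For cancer against sham in colon the 0 calls became 379 in DESeq2 and 0 to 9 with single libraries left out. For nivolumab against cancer there they became 183 and 0 to 2, and for nivolumab against sham 147, 7 in a fit of those 2 groups and 0 to 3. In dorsal horn the 44 calls of cancer against sham became 366 in DESeq2, 2 in a fit of those 2 groups, 91 without sham 3 and cancer 3, 383 with the ganglion covariate and 2 to 125 with single libraries left out. With single libraries left out the 2345 calls of nivolumab against cancer ranged from 771 to 2717, with 1144 without cancer 2, 771 without nivolumab 1 and 964 without nivolumab 3. The 1158 calls of nivolumab against sham became 1928 in DESeq2, 2197 with the covariate and 95 to 1237 with single libraries left out, with 228 without sham 1, 652 without sham 2, 95 without nivolumab 1 and 310 without nivolumab 3. The tissue contrasts had 22, 18 and 26 calls, which became 331, 748 and 498 in DESeq2 and 3 to 93, 1 to 138 and 3 to 64 with single libraries left out. The 10654 calls between sham tissues stayed between 10026 and 10915. Of Socs1 to Socs7, 1 passed in DESeq2 in each colon comparison with sham (0 to 1 with libraries left out for cancer against sham), 2 in DESeq2, 1 without sham 3 and cancer 3 and 0 to 1 for nivolumab against sham in dorsal horn, 1 with the covariate and 0 to 1 for nivolumab against cancer there, and 2 in DESeq2 for the tissue contrast of nivolumab against sham. The cause was not tested.

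Small fold changes changed sign in places. Without sham 3 and cancer 3, dorsal horn Socs4 was -0.00812 (cancer against sham) and Socs3 0.330 (nivolumab against sham), and with the covariate Socs6 was 0.0580 (nivolumab against cancer). With single libraries left out the colon ranges were -0.00526 to 0.398 for Socs6 (cancer against sham), -0.612 to 0.607 for Socs2 and -0.677 to 0.0467 for Socs3 (nivolumab against cancer), and -0.911 to 0.310 for Socs2, -0.441 to 0.0515 for Socs5 and -0.156 to 0.0306 for Socs6 (nivolumab against sham). The dorsal horn ranges were -0.00243 to 0.193 for Socs4 and -0.0455 to 0.110 for Socs7 (cancer against sham), -0.0619 to 0.0283 for Socs6 (nivolumab against cancer), and -0.407 to 0.309 for Socs3 and -0.0185 to 0.0884 for Socs5 (nivolumab against sham). The tissue contrasts ranged from -0.702 to 0.211 for Socs1 (cancer against sham), -0.109 to 1.03 for Socs3 (nivolumab against cancer) and -0.473 to 0.0229 for Socs5 (nivolumab against sham, a contrast added after the data were seen).

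The labels do not say that replicate numbers pair the samples. Same-numbered libraries deviated together (correlation over 0.1) in 3 of 9 colon pairs, 6 of 9 dorsal horn pairs and 0 of 9 pairs between tissues. Of the comparisons, nivolumab against cancer in dorsal horn alone had all 3 pairs above it (0.19, 0.28 and 0.19), a hint from the data and not from the design. There the block left the count of calls within 1.5 times of 2345, no SOCS gene passed, and of the genes named Lifr came to pass (adjusted p = 0.000699) and Plin4 did not (adjusted p = 0.0504). With a replicate block the calls were 1 for cancer against sham in colon, 115 for cancer against sham in dorsal horn, and 0, 0 and 4 in the 3 tissue contrasts. With the block 1 SOCS gene passed for nivolumab against sham in dorsal horn, Socs2, at 0.99 (adjusted p = 0.0274). Depth limits dorsal horn Socs1, where 3 counts equal 0.103 to 0.132 CPM and the highest library had 15 counts.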
